A study of Mus musculus with 2 samples.

Results

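The hypoxia and glycolysis genes described here were 32 genes chosen by symbol, all of which were present among the 28523 genes detected in cells of all types. In the table of genes detected in neutrophils, 31 of them were among 21544 genes. The one gene missing there was Epas1, which encodes the alpha subunit of hypoxia-inducible factor 2. The cells came from liver metastases of 4T1, a mouse triple-negative breast cancer line. Before injection, the 4T1 cells received a non-targeting hairpin in the control group (shSCR) or one that silences Zdhhc17, a palmitoyltransferase gene, in the other (shZdhhc17), delivered by lentivirus and kept under puromycin selection. They were placed into the spleens of female BALB/c mice aged 6-8 weeks, the spleens were then removed, and metastases were taken on day 14. Only the injected cancer cells carried a hairpin, so the neutrophils and macrophages of both groups were host cells of the same genotype. Each group was 1 library made from 3 pooled dissociations, so no spread between mice was measured and no test between groups was possible.

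Oxygen sensing in animal cells rests on hypoxia-inducible factors (HIFs), transcription factors whose alpha subunits are hydroxylated by prolyl hydroxylases when oxygen is present and are then degraded. When oxygen falls, the alpha subunit persists, pairs with ARNT and binds hypoxia response elements, whose core is ACGTG or GCGTG, near its target genes. These targets include glucose transporters, most enzymes of glycolysis and the lactate exporter, and neutrophils are known to rely on glycolysis for much of their energy.

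The deposited tables bear on these genes in 3 ways. They flag the 1000 genes that varied most between cells, once among cells of all types and once among neutrophils. They list 20 markers for each of 9 neutrophil clusters, with the fraction of cells in which each was detected. They also give each cell's library, type or cluster, and depth in UMIs (unique molecular identifiers, which count captured molecules). Levels of each gene per library, in cancer cells or in macrophages were not analysed here, so every value given for a gene below is for both libraries together. The types in which such levels would be read held 6207 shSCR and 7928 shZdhhc17 cancer cells, and 3127 and 2934 non-Kupffer macrophages. Median depth per cell was 7105 UMIs in shSCR and 6732 in shZdhhc17 over all 44371 cells. In neutrophils it was 2464 UMIs in shSCR and 1418 in shZdhhc17, and 15.3% and 31.3% of them had no mitochondrial UMI.

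The promoters of the 5 genes that marked a single neutrophil cluster, Hypoxia/Angiogenesis, are shown first because the values below turn on these genes. All 5 hold the core ACGTG within 250 bases before a start site. From here on, core means ACGTG alone, and GCGTG is not counted or marked unless stated. The core was found in a window of 21 of the 28 genes of the set that have one, and in 21.8% of all genes with one. Each is given from 250 bases before to 50 bases after a RefSeq transcription start on GRCm38.p6, a C57BL/6J genome, 5′ to 3′ on the gene's strand. Capitals mark ACGTG on either strand, so CACGT is the same core read on the opposite strand and CACGTG, the E-box, holds it on both. Hilpda has 2 annotated starts and the window with the core is shown; Ero1l is listed by RefSeq as Ero1a. The windows were Hilpda at chr6:29272376-29272675 (plus strand), Ero1l at chr14:45318523-45318822 (minus strand), Bnip3 at chr7:138909457-138909756 (minus strand), Egln3 at chr12:54203825-54204124 (minus strand), Slc2a1 at chr4:119108495-119108794 (plus strand).
Hilpda: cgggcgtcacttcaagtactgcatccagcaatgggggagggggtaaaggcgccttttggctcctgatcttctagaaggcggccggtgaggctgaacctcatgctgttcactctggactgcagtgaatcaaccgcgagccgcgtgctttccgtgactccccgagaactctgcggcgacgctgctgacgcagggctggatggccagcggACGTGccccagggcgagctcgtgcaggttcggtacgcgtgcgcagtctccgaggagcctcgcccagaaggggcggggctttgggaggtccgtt
Ero1l: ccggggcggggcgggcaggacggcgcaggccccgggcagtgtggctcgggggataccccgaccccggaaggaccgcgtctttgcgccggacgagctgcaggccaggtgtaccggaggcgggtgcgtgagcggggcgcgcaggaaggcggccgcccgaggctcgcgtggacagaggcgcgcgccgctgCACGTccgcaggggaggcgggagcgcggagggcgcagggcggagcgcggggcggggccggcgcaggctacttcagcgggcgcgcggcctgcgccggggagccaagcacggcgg
Bnip3: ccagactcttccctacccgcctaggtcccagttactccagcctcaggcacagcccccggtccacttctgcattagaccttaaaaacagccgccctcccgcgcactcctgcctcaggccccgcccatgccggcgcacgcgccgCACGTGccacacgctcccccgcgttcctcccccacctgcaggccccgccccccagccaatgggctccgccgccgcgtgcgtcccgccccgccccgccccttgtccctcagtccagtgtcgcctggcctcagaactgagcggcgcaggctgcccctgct
Egln3: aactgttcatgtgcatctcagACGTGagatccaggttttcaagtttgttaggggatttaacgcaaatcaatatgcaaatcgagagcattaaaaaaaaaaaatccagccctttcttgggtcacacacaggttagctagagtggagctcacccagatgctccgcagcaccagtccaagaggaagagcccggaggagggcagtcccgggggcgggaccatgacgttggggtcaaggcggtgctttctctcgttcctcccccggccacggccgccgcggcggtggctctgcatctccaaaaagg
Slc2a1: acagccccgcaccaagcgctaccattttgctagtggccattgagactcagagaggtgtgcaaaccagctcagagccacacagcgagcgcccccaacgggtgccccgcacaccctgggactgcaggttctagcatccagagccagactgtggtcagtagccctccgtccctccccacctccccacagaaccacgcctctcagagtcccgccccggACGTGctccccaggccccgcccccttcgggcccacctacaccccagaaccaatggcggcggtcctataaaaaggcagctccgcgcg

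Counted from the RefSeq start of the window shown, the core lay 43 bases before the start for Hilpda and 63 for Ero1l. It lay 108 bases before for Bnip3, 229 for Egln3 and 36 for Slc2a1. The window of the other Hilpda start, which lies upstream, held no ACGTG, though it held a match to GCGTG. The GENCODE spans given below begin at other positions, and the core lies inside the span of Hilpda and of Ero1l and at the edge of that of Slc2a1. In Bnip3 it was part of an E-box, a motif that other transcription factors also bind. Such a match describes the sequence and does not show that a factor binds there.

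Of the 32 genes, 28 had promoter windows, and 21 of these 28 (75%) held ACGTG in at least 1 window. The share over all 27025 genes with a window was 21.8%, and that over all windows taken singly was 19.6%. The exact 95% interval of the 28 genes' share ran from 55.1% to 89.3%. The genes were chosen for the hypoxia response and glycolysis and include known HIF targets. Their share therefore describes the chosen set and is not a test of it. At least 2 separate cores within 1 window, counting those in E-boxes, were found in 8 of the 28 genes (28.6%), against 3.09% of all genes. The core nearest to a start lay within 100 bases of it in 16 of the 21 genes, and at or past the start in 4. Epas1, Bnip3l, Ndrg1 and Slc2a3 had no window. The promoters were rich in CpG, with a median of 24.5 CpG dinucleotides in the richest window of a gene against 8 over all genes, and ACGTG itself contains a CpG. Among the 5465 genes with at least 24.5 CpG the share with the core was 33.4%, and among the 14 genes of the set above that value it was 85.7% (12 genes).

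Genes whose promoters held the core were found among both the variable and the less variable members. Short sites of 8 bases on either side of the core nearest the start show how it recurs in unlike surroundings. The first 5 belong to genes flagged as variable in neutrophils outside the marker list, and the last 6 to unflagged genes with at least 2 cores in a window. On GRCm38.p6 they lie at chr2:11502130-11502151 (Pfkfb3, minus), chr6:82774494-82774514 (Hk2, minus), chr8:45999844-45999864 (Ankrd37, minus), chr10:59323272-59323292 (P4ha1, plus), chr10:75860236-75860256 (Mif, minus), chr12:73907789-73907809 (Hif1a, plus), chr10:62340402-62340422 (Hk1, minus), chrX:106186961-106186981 (Pgk1, plus), chr9:59657227-59657247 (Pkm, plus), chr7:46845762-46845782 (Ldha, plus), chr11:120949045-120949065 (Slc16a3, plus).
Pfkfb3: cttctctcCACGTGaaaggggg
Hk2: agcacatcCACGTcactgtcc
Ankrd37: gtttgggtACGTGaggccgca
P4ha1: acagagcgCACGTagcgaggg
Mif: agctgggtCACGTagctcagg
Hif1a: tgagagcaACGTGggctgggg
Hk1: cgctccttACGTGgggaacgt
Pgk1: ggaagtagCACGTctcactag
Pkm: attctagtCACGTccgcggac
Ldha: ggttcccgCACGTccgctggg
Slc16a3: cgcgggggACGTGccgcgcga

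Among the 12 genes with a window that were flagged as variable in neutrophils, 10 held the core (83.3%, exact interval 51.6 to 97.9). Among the 16 that were in the neutrophil table but not flagged, 11 held it (68.8%, 41.3 to 89.0). The intervals overlap widely, and the difference was not tested. The genes were chosen and not sampled, so the intervals serve only as a guide to how few genes there are. Ldha, which encodes the lactate dehydrogenase subunit that favours lactate production, had the most cores, with 3 in 1 window, and was not flagged. Of these 3, 2 were within E-boxes, and other genes of the set had more cores outside E-boxes. Adm, Pdk1, Eno1, Gpi1, Pfkl, Pfkp and Tpi1 had windows without ACGTG, of which Pfkp and Tpi1 were flagged.

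**Figure D1:**
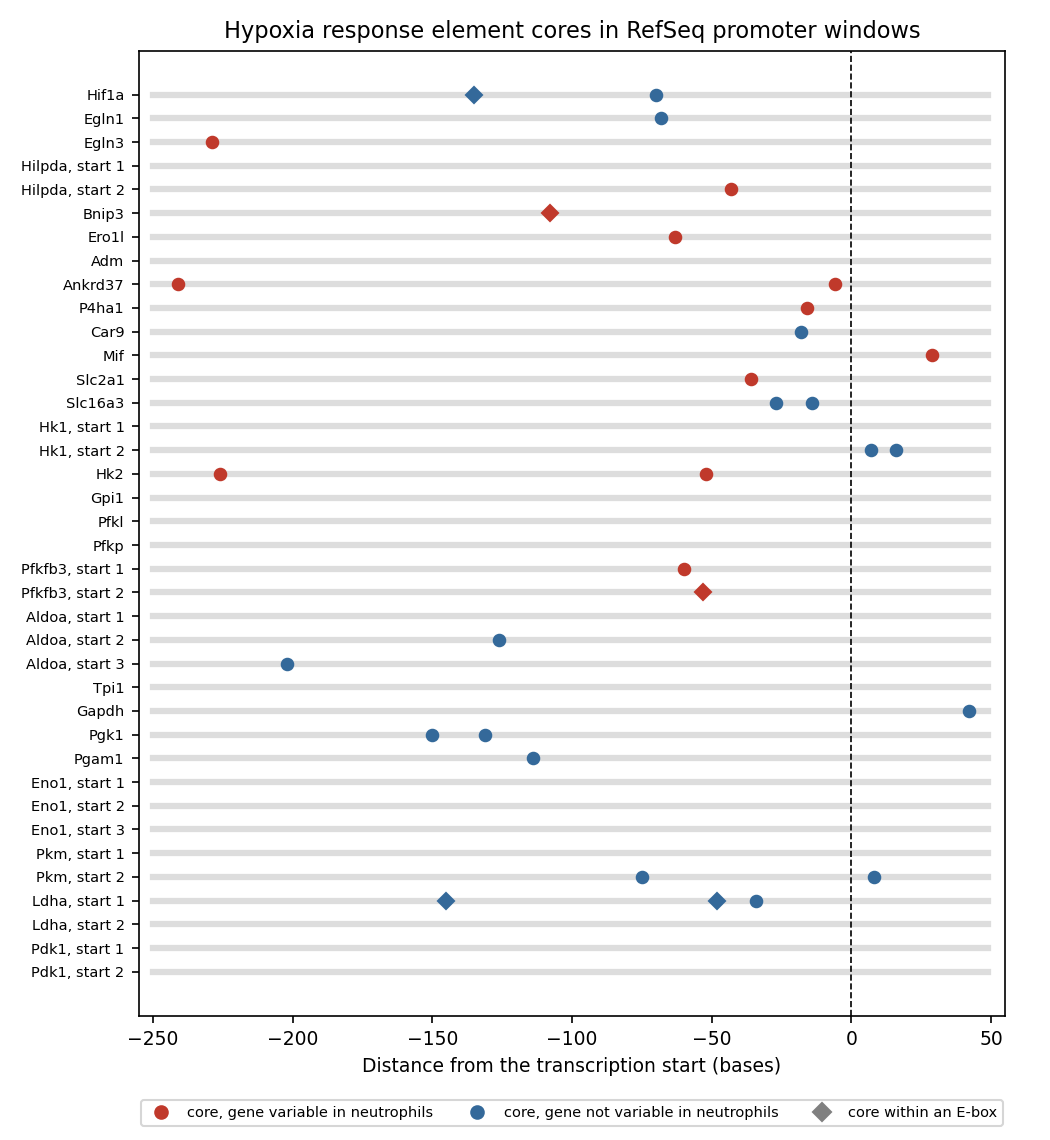
Positions of the core ACGTG, on either strand, in each RefSeq promoter window of the 28 genes, in bases from the transcription start (dashed line at 0). Each grey bar is a window from 250 bases before to 50 after the start, circles are cores and diamonds are cores within an E-box; red marks genes flagged as variable in neutrophils. In 16 of the 21 genes with a core, the nearest one lies within 100 bases of a start.

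The first question on the cells was which of the genes varied from cell to cell. Among neutrophils, 14 of the 31 genes were among the 1000 most variable (45.2%), where 4.64% of all genes of that table were flagged. Among cells of all types 6 of 32 were flagged (18.8%), against 3.51% of all genes. The 6 were Hilpda, Bnip3, Ero1l, Slc2a3, Pfkfb3 and Ndrg1, and each was also flagged in neutrophils. The other 8 were flagged in neutrophils only. The flag is given for both libraries together and says nothing of which library was higher. The background holds every gene listed as detected, however seldom. The genes were chosen with earlier results of these data known and include 5 listed neutrophil cluster markers, all flagged in neutrophils. These shares, also those by role below, therefore describe the chosen set and do not test it.

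Of the genes that sense oxygen, 1 of the 3 listed in neutrophils was flagged there (33.3%, against 4.64% of all genes) and none of 4 among all cells. Hif1a, the alpha subunit of HIF-1, was detected in neutrophils but not flagged, and Epas1 was not listed among genes detected in neutrophils. Of the prolyl hydroxylases that mark HIF for degradation, Egln3 was flagged in neutrophils and Egln1 was not. Egln3 is itself a HIF target, so its product acts in a feedback loop. HIF alpha subunits are controlled mainly at the level of the protein, which these data do not measure.

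Of the hypoxia-induced targets, 7 of 10 were flagged in neutrophils (70.0%) and 4 of 10 among all cells. Hilpda encodes a lipid droplet protein that inhibits the lipase ATGL, and Bnip3 encodes a mitochondrial receptor for mitophagy. Ero1l encodes the oxidase that renews disulfide bond formation in the endoplasmic reticulum, and P4ha1 a catalytic subunit of the collagen prolyl hydroxylase. Ndrg1, a stress-responsive gene, Ankrd37, an ankyrin repeat gene, and Mif, a cytokine gene, completed the 7. Bnip3l, the paralogue of Bnip3, was not flagged, nor were Adm, which encodes the vasodilator adrenomedullin, and Car9, which encodes a carbonic anhydrase of the cell surface.

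Of the 3 transporter genes, 2 were flagged in neutrophils (66.7%) and 1, Slc2a3, among all cells. Both glucose transporter genes, Slc2a1 (GLUT1) and Slc2a3 (GLUT3), were flagged in neutrophils, and Slc16a3, which encodes the lactate exporter MCT4, was not. Of the 14 glycolytic enzyme genes 4 were flagged in neutrophils (28.6%) and 1, Pfkfb3, among all cells. The 4 were Hk2, which encodes a hexokinase of the entry step, Pfkp, a phosphofructokinase, Pfkfb3, whose product makes the activator of phosphofructokinase, and Tpi1, triosephosphate isomerase. Of these 4, all but Tpi1 act at or on the regulated early steps, as do Hk1 and Pfkl, which were not flagged. The unflagged 10 were Hk1, Gpi1, Pfkl, Aldoa, Gapdh, Pgk1, Pgam1, Eno1, Pkm and Ldha. Pdk1, whose product keeps pyruvate out of the mitochondrial cycle, was not flagged either.

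Where 2 isoforms or paralogues of a step were in the set, the flag often fell on 1 of them. It fell on Hk2 and not Hk1, on Pfkp and not Pfkl, on Egln3 and not Egln1, and on Bnip3 and not Bnip3l, while the glucose transporters were both flagged. An unflagged gene may still vary, since only the top 1000 were marked. Pseudogenes named after Gapdh, Aldoa, Pgk1, Pgam1, Ldha and Mif (2 each) and after Bnip3l (1) are annotated in GENCODE M21, so reads of these genes may have been shared with copies. Only symbols made of the gene's own symbol and -ps were counted. Copies under other names, of these or the other genes, were not counted. The symbol Aldoa is carried by 2 neighbouring annotated genes.

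**Figure D2:**
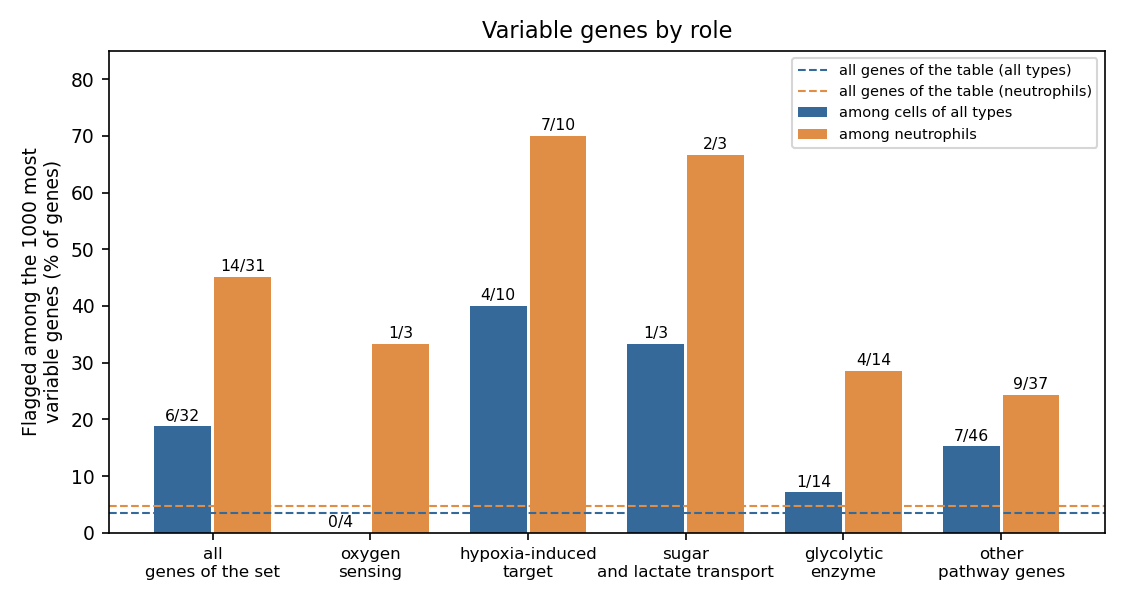
Percent of genes flagged among the 1000 most variable, by role, among cells of all types (blue) and among neutrophils (orange). Counts stand above the bars, and dashed lines mark the share of all genes of each table (3.51% and 4.64%); hypoxia-induced targets reach 70.0% in neutrophils and glycolytic enzymes 28.6%, and differences between roles were not tested. Pdk1, flagged in neither, is counted in the first pair of bars.

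A further 46 genes of the same pathways, listed separately, showed a smaller share. In neutrophils 9 of the 37 listed there were flagged (24.3%): Vegfa, Ddit4, Bhlhe40, Kdm3a, P4hb, Higd1a, Fam162a, Gbe1 and Hmox1. Vegfa encodes the angiogenic growth factor, Ddit4 an inhibitor of mTORC1, Kdm3a a histone demethylase and Gbe1 the glycogen branching enzyme. Among all cells 7 of 46 were flagged (15.2%), and Vegfa, Gbe1, Hmox1 and Lox were among them. Lox, a collagen cross-linking enzyme gene, was absent from the neutrophil table. Bpgm was flagged among all cells and not in neutrophils. None of the isoforms Pfkm, Aldoc, Eno2, Ldhb, Hk3 and Slc16a1 was flagged in either table.

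The second question was where in the neutrophils these genes were high. In the marker table that the authors deposited, 5 of the 31 genes (Hilpda, Ero1l, Bnip3, Egln3 and Slc2a1) were among the 180 markers, all 5 in Hypoxia/Angiogenesis and none in the other 8 clusters. That cluster's 20 markers were 0.0928% of the genes of the neutrophil table, and all 180 markers were 0.835%. The clusters were made from the same cells and the authors named each cluster from its top markers, per the file headers, so the values below describe the cluster and do not test it. No gene of the glycolytic enzyme group was a listed marker of any cluster. The list was limited to the top 20 by the authors' marker score, the log2 fold change weighted by how specific detection was. Slc2a1 was the last gene inside it, with a score of 0.937. An unlisted gene scored lower or was not scored there, and the lowest listed score ranged from 0.229 in Migration 1 to 2.42 in Early-Stage 1.

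Hilpda had the highest log2 fold change of the 20 markers in the authors' deposited table, 3.67 between the cluster and all other neutrophils. It was detected in 69.7% of the 2064 cells of the cluster and in 14.5% of the 8858 cells outside. These fractions correspond to 1439 and 1283 cells, so 52.9% of all neutrophils with Hilpda lay in a cluster that held 18.9% of the neutrophils.

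Ero1l was the most widely detected of the 5. In the authors' deposited table it had a log2 fold change of 3.08 and was found in 77.3% of cells inside and 43.3% outside. Of the neutrophils with Ero1l, 29.4% lay in the cluster, so most cells in which it was detected were elsewhere. Its partner P4hb, which encodes protein disulfide isomerase and is oxidised by the Ero1l product, had a similar profile in that table (75.1% inside and 39.6% outside, log2 fold change 2.33). P4hb is also the second subunit of the collagen prolyl hydroxylase with P4ha1.

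Bnip3 was detected in 75.2% of the cells of the cluster and 26.3% outside, with a log2 fold change of 2.95 in the authors' deposited table. Of the neutrophils with Bnip3, 40.0% lay in the cluster. Egln3 was detected in 56.6% and 22.7% (log2 fold change 2.39 in the authors' deposited table), and 36.8% of the cells with it lay in the cluster. Slc2a1 had the smallest difference of the 5, with 54.6% inside and 28.0% outside and a log2 fold change of 2.00 in the authors' deposited table, and 31.2% of the cells with it lay in the cluster.

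Detection outside the cluster thus spanned 14.5% to 43.3% over the 5 genes, and none was restricted to it. Among the other 15 markers in the authors' deposited table, the fold between detection inside and outside ran from 1.10 for the ferritin gene Fth1 to 8.45 for the chemokine gene Cxcl3, with a median of 2.23. For the 5 hypoxia genes it ran from 1.79 to 4.81 with a median of 2.50. Cd274, which encodes PD-L1, had 4.86. Bsg, which encodes basigin, the chaperone that brings lactate transporters to the membrane, was detected in 53.1% and 31.8% in that table.

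**Figure D3:**
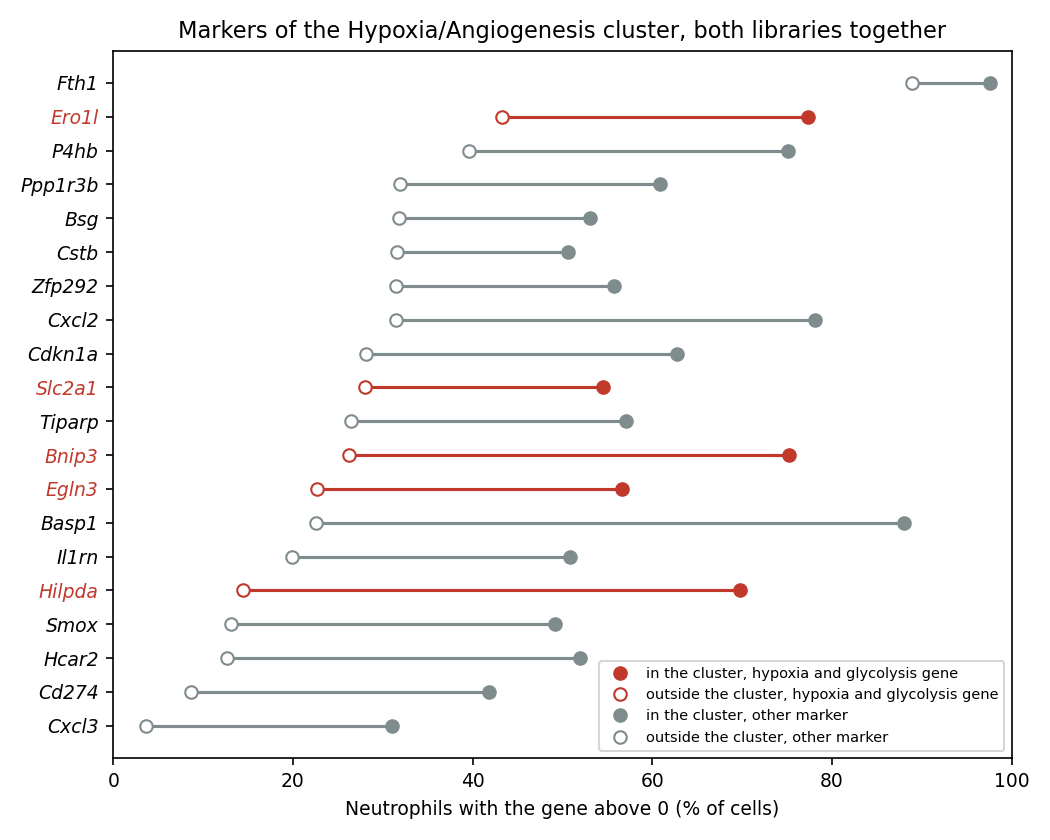
Percent of neutrophils with each of the 20 Hypoxia/Angiogenesis markers above 0, inside the cluster (filled) and outside it (open), both libraries together, from the authors' deposited fractions. The 5 hypoxia and glycolysis genes are red; Hilpda spans 14.5% to 69.7% and Ero1l 43.3% to 77.3%.

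Depth per cell also differed between the cluster and the rest. The cells of Hypoxia/Angiogenesis had a median of 1159 UMIs, against 2864 in the other neutrophils, and 647 detected genes against 1067. Detection of these markers was not compared at matched depth, and the part of depth in it was not tested. None of the 32 markers listed for 9 other kinds of cell, of which 19 were in the neutrophil table, was among the 20 markers of the cluster. All 7 listed neutrophil markers were in the neutrophil table, and 6 of them were among the 180 cluster markers. None of the 7 was among the 20 markers of Hypoxia/Angiogenesis, so these counts do not bear on which kind of cell the cluster holds. Genes on the opposite strand overlap Bnip3 (Gm45507) and Slc2a1 (Gm12867 and Gm12868). Whether counting used strand is not given in the sources used here, so it is not known whether their reads were kept apart from these genes'. On GRCm38 in GENCODE M21 the 5 protein-coding genes span chromosome 6, 29272488 to 29275446 (Hilpda, ENSMUSG00000043421.8), chromosome 14, 45283087 to 45318771 (Ero1l, ENSMUSG00000021831.9), chromosome 7, 138890836 to 138909519 (Bnip3, ENSMUSG00000078566.8), chromosome 12, 54178981 to 54203860 (Egln3, ENSMUSG00000035105.5) and chromosome 4, 119108711 to 119137983 (Slc2a1, ENSMUSG00000028645.11).

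The third question was how the cells of the cluster that these 5 genes marked were spread over the libraries. Cells in which the genes were detected were not counted per library. Hypoxia/Angiogenesis held 1387 of 6594 neutrophils in shSCR (21.0%, exact interval 20.1 to 22.0) and 677 of 4328 in shZdhhc17 (15.6%, 14.6 to 16.8). The ratio of shares, shZdhhc17 over shSCR, was 0.744 with a counting interval of 0.684 to 0.808. This is a difference in the number of cells assigned to the cluster and does not give the level of any of the 5 genes per cell in either library. Cells of the cluster had a median depth of 954 UMIs in shZdhhc17, against 1295 for shSCR. Mitochondrial UMIs were absent from 54.1% of these cells in shZdhhc17 and from 31.4% in shSCR. In both libraries it had the second lowest median depth of the 9 clusters. The part of depth in the difference was not tested.

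Within each library the cluster was concentrated in the cells with few UMIs. Neutrophils of each library were put into 4 classes of equal size by UMIs. In shSCR the cluster made up 41.8% of the class with the fewest UMIs (548 to 1289), 33.5% of the next, 8.68% of the third and 0.182% of the deepest. In shZdhhc17 the same classes, of which the lowest ran from 504 to 910 UMIs, gave 28.1%, 24.3%, 9.99% and 0.185%. The libraries had separate intervals in the lower 2 classes, with shZdhhc17 lower. In the third class shZdhhc17 was higher, with overlapping intervals (8.27 to 11.9 against 7.36 to 10.1). The deepest class held 3 cells of the cluster in shSCR and 2 in shZdhhc17. The classes were set within each library and so cover different UMI ranges.

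**Figure D4:**
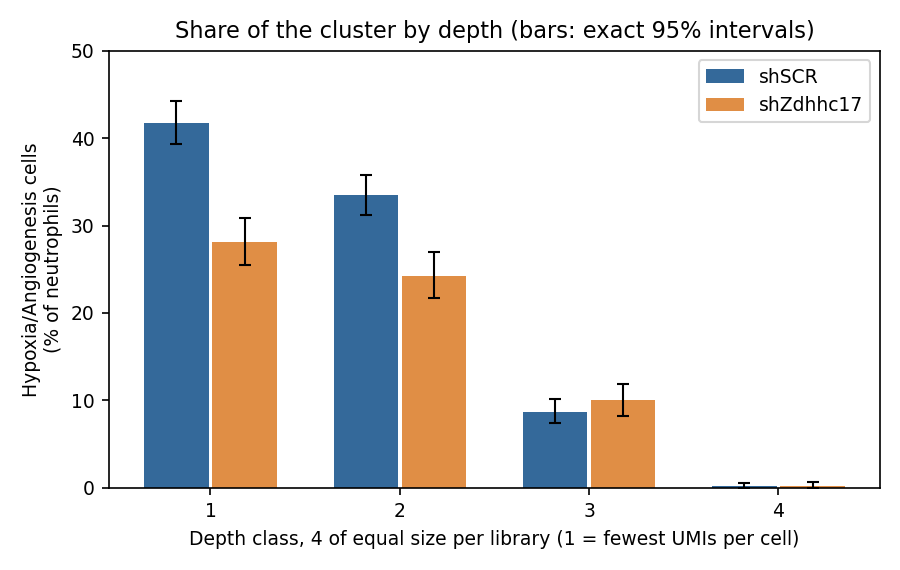
Share of Hypoxia/Angiogenesis cells among neutrophils in 4 classes of equal size by UMIs per cell, set within each library (shSCR blue, shZdhhc17 orange); error bars are exact 95% binomial intervals and cover counting error only. The share falls from 41.8% to 0.182% in shSCR and from 28.1% to 0.185% in shZdhhc17 as depth rises.

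The Inflammation cluster was also of low depth, with a median of 906 UMIs per cell in shZdhhc17, against 1175 for shSCR. None of the 31 genes was among its 20 markers, and its lowest listed marker score was 0.516, below the 0.937 of Hypoxia/Angiogenesis. It held 28.6% of neutrophils in shZdhhc17 (27.2 to 29.9) and 18.1% in shSCR (17.2 to 19.0). The 2 libraries had 609 numeric cell labels in common, of which 96 had the same annotated type in both, and leaving these cells out gave the same ratio for Hypoxia/Angiogenesis to 3 digits.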

How the data were processed

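Single-cell RNA-seq libraries were captured on BD Rhapsody, 1 per group. Per the file headers, the authors corrected counts for ambient RNA, clustered and annotated the cells, on genes of GRCm38 (mm10). The submitters' processing notes name Seurat 4.1.0; versions of other tools: not given in the sources used here. Whole-number counts of UMIs and genes per cell were deposited by the authors, with the percent of mitochondrial UMIs, flags per gene, and a marker table. Per the file headers, that table holds log2 fold changes, computed in Seurat (Wilcoxon) on values scaled by depth, with a pseudocount of 1. It also holds the fraction of cells with the gene above 0, and the authors' specificity and marker scores.

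Cells with a gene were computed as the deposited fraction times the cells of the cluster or outside it. All 180 products were within 0.15 of a whole number inside the cluster. Share intervals are exact (Clopper-Pearson, 95%), ratio intervals are log-normal, and both cover counting error only. Promoter windows and RefSeq symbols are of GRCm38.p6, and gene positions of GENCODE M21. ACGTG was searched on both strands, overlapping matches were merged, and a gene counted if any window matched. The search was tested on made sequences. A gene position is given for the first annotated gene of its symbol. Python 3.11.15, pandas 2.3.3, SciPy 1.17.1 and matplotlib 3.10.9 were used.

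The genes, roles and lists were chosen with earlier results of these data known. The named genes are all 32, the separately listed pathway genes that were flagged or markers, and the markers of the cluster. No doublet caller was run; the neutrophil table holds cells the authors annotated as neutrophils. Alternatives covered denominators, depth, mitochondrial percent, fold change, gene universe, motif, window, cell labels shared between libraries, the marker genes left out, and the rounding of the deposited fractions.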

Additional observations from a re-analysis of the deposited data

How the results depend on the processing

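None of the 24 alternatives reversed a direction, though counts of genes and the share of all genes flagged had none to reverse. Of the 24, 10 were the lower and upper ends of rounding of the deposited fractions and could hardly move a value. All 32 genes are protein-coding, so the filter for protein-coding genes could not change their count. The split into depth classes was not among the 24. The ratio of Hypoxia/Angiogenesis shares, 0.744, was 0.519 with all cells as denominator, 0.584 among neutrophils with at least 1000 UMIs and 0.616 at or below the median mitochondrial percent. It remained below 1 under all 5 alternatives. The limit of 1000 UMIs lies between the cluster's library medians, and the cause was not tested. The number of variable genes in neutrophils was 14, and 9 without the 5 marker genes, by construction. The share of all genes flagged there rose from 4.64% to 5.83% among protein-coding genes only. With GCGTG allowed beside ACGTG, 92.9% of the genes had a match, against 46.7% of all genes. With windows counted singly the share was 60.5%, against 19.6%. Leaving out the 5 markers and shared labels, and counting windows singly, were chosen after the data were seen. At a log2 fold change of at least 2, 4 of the 5 genes stayed markers (all 5 at 1, which no marker of the cluster falls below), and Slc2a1, just under that value, did not. No paired analysis was possible because each group is 1 library. For the same reason no library could be left out.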

Other observations

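The share of Hypoxia/Angiogenesis neutrophils from each library varied at the finer level of the authors' clustering. In 26 fine clusters of at least 20 cells, most of the cells belonged to Hypoxia/Angiogenesis, and together these held 91.7% of its cells. The shZdhhc17 library supplied 32.8% of the cells of Hypoxia/Angiogenesis and 39.6% of all neutrophils, and between 3.57% and 69.6% of a fine cluster, with a median of 28.3%. Against 32.8%, the exact interval of a fine cluster's share lay below in 6, above in 5 and included it in 15. Against 39.6%, these counts were 10, 3 and 13. The 3 above both references were H.28 (69.6% of 112 cells), H.77 (59.0% of 78 cells) and H.59 (53.5% of 86 cells), with median depths of 916, 984.5 and 845 UMIs. They were named for this share after it was seen. Of the cells of H.28, 65.2% belonged to Hypoxia/Angiogenesis. Whether the hypoxia genes differ in level among these fine clusters was not tested.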
